A study of Mus musculus with 6 samples.

Results

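The genes described here are 10 established transcriptional targets of the tumour suppressor p53 in mouse cells (Cdkn1a, Mdm2, Ccng1, Bax, Bbc3, Phlda3, Eda2r, Zmat3, Trp53inp1 and Sesn1), chosen by name from the 19505 genes that the arrays named. A probe set was paired with 9 of the 10. Bax had none under its symbol in the annotation used here, so it was not analysed. The readout was total liver RNA on 6 Affymetrix Clariom S mouse arrays, 3 in each of 2 groups, and values are log2 intensities after RMA normalisation. AAV-PIK3CD mice (arrays 51, 52 and 53) received an adeno-associated virus that carries mouse Pik3cd, the gene of the delta catalytic subunit of PI3K, under the hepatocyte-active TBG promoter. AAV-control mice (arrays 48, 49 and 50) received a vector that the labels call empty, and that elsewhere in the study carries EGFP under the same promoter. All were adult male C57BL/6 mice of no further genotype, injected some weeks before the liver was taken. The labels and array methods call the tissue tumour, whereas the study describes it as liver. The extraction label speaks of cell culture, and the injection is given as portal vein in one place and tail vein in another.

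p53 is a transcription factor that is kept scarce by the ubiquitin ligase MDM2 and accumulates after DNA damage and other stress. Its targets stop the cell cycle, promote apoptosis, restrain growth signalling and, through Mdm2 itself, switch p53 off again. PI3K touches this circuit because its effector kinase AKT activates MDM2 and because the FoxO factors that AKT inhibits also drive Cdkn1a and Bbc3. In liver, Cdkn1a is best known as a brake on hepatocyte division during regeneration. Setting AAV-PIK3CD against AAV-control therefore asks whether these targets differ in livers given the kinase subunit.

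No measured p53 target passed the test between the groups. By rank products, the test named in the study's methods, 0 of the 9 genes reached an adjusted p of 0.05, against 0.0405% of all probe sets (9 of 22206). The smallest adjusted p among the 9 genes was 0.708, for Eda2r. The test was run anew here, and the study itself reported more upregulated genes from these arrays. limma also gave 0 of 9, with a smallest adjusted p of 0.932, and called 0 probe sets overall. Before adjustment, 2 of the 9 genes had p below 0.05 by rank products (Eda2r and Cdkn1a, both higher in AAV-PIK3CD), where 5.7% of all probe sets did so, 2.86% in the higher and 2.84% in the lower direction. By limma 1 of the 9 did (Trp53inp1), where 5.08% of all probe sets did so. The mean was higher in AAV-PIK3CD for 7 of the 9 genes and for 47.7% of all probe sets, and the median difference was 0.13 over the 9 genes and -0.01 over all probe sets. The groups did not overlap for 1 gene, Trp53inp1, which was higher in AAV-PIK3CD, whereas 4.47% of probe sets were separated in that direction and 9.44% in either. What stood out among these genes was instead the variation between arrays of the same group, above all in Cdkn1a.

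**Figure D1:**
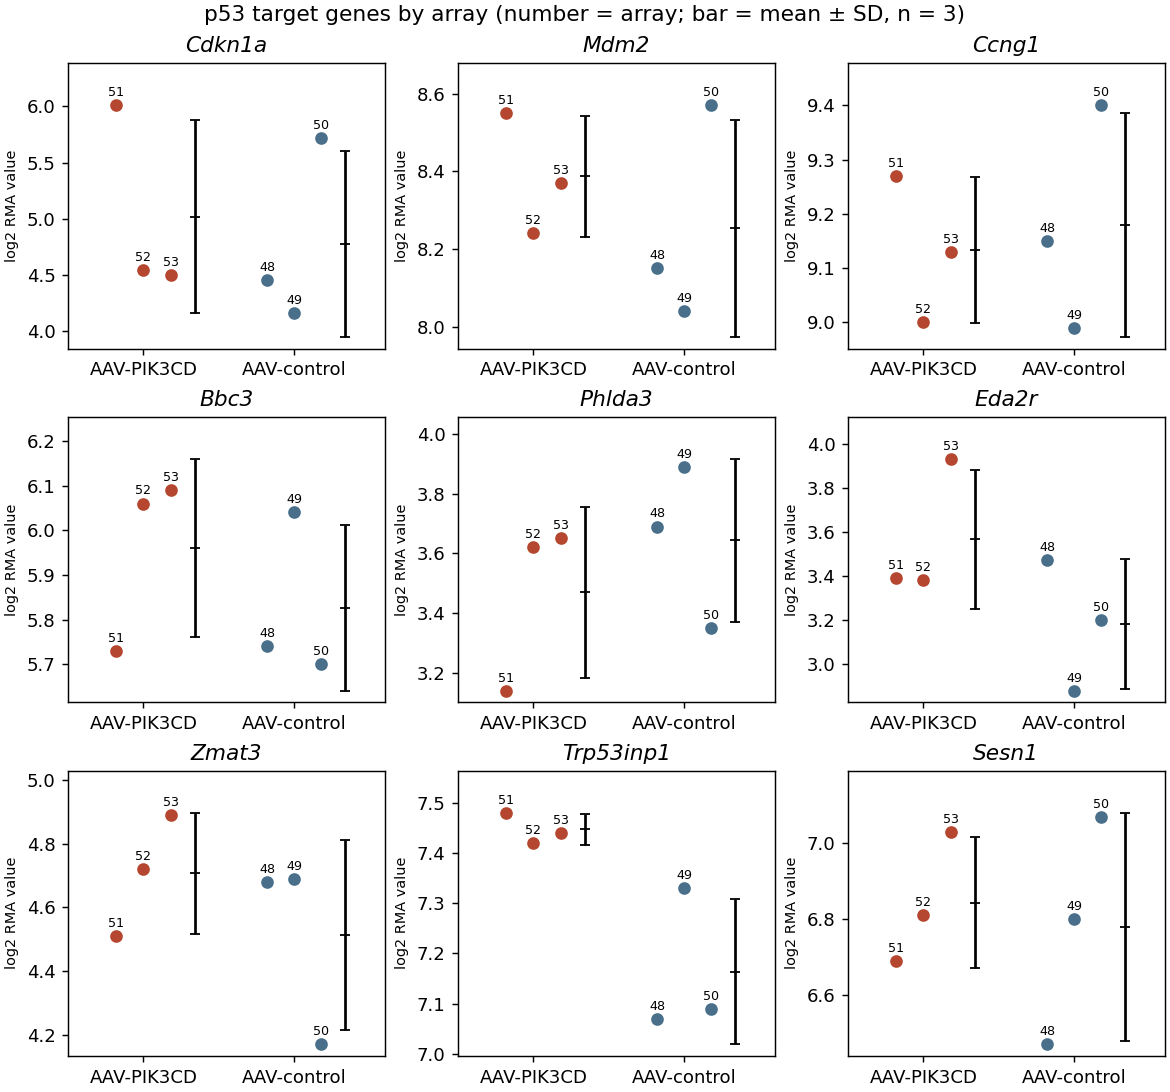
Log2 RMA value of each of the 9 measured p53 target genes in every array, AAV-PIK3CD on the left and AAV-control on the right of each panel; numbers name the arrays and black bars give the mean ± SD (n = 3 each), with a separate y axis for each gene. Cdkn1a reached 6.01 in array 51 and 5.72 in array 50 and stayed between 4.16 and 4.54 in the other arrays, and Trp53inp1 is the gene whose groups are separated.

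The arrays themselves were alike in level, with medians between 4.81 and 4.87, and all 18 measured hepatocyte markers lay above the array median in all 6 arrays. Pik3cd read 4.78, 5.14 and 4.86 in AAV-PIK3CD and 4.66, 4.34 and 4.48 in AAV-control. The difference was 0.43 (limma SE 0.14), with an adjusted p of 0.673 by rank products and 0.932 by limma. The position of its probes relative to the vector's insert was not given, so this is a limited check of the labels. Array 51 differed from the others in pancreatic acinar transcripts: 16 of 18 markers were highest there, and their summed level (log2) was 13.13, against 8.29 to 8.53 in the other 5 arrays. Skeletal muscle markers were also highest there in 12 of 13 cases. In such bulk RNA, fewer cells of one type and less RNA per cell cannot be told apart. The labels do not say that each array is a separate mouse, although the array methods speak of individual samples. The limma p-values thus rest on the spread between these samples, which need not be a spread between mice. Rank products p-values come from shuffled genes and do not weigh that spread.

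Cdkn1a encodes p21, the inhibitor of cyclin-dependent kinases through which p53 halts the cell cycle. It read 6.01, 4.54 and 4.50 in AAV-PIK3CD and 4.45, 4.16 and 5.72 in AAV-control. A single array in each group was high, and the groups overlapped almost completely. Array 51 exceeded the next AAV-PIK3CD array by 1.47 (2.77-fold), and array 50 exceeded the next AAV-control array by 1.27 (2.41-fold). The means were 5.02 ± 0.86 in AAV-PIK3CD and 4.78 ± 0.83 in AAV-control (SD, n = 3 each), a difference of 0.24 with a 95% interval from -0.73 to 1.21 (limma), or 0.60-fold to 2.32-fold. Its exact permutation p (2-sided) was 0.5. The difference was -0.26 without array 51 and -0.07 without array 49, and it was 0.08 without array 48 and 0.71 without array 50, so both its direction and its size depended on single arrays. Rank products and limma read this gene unlike each other, with unadjusted p-values of 0.0418 and 0.596 (adjusted p = 0.86 and 0.973). Rank products weigh the size of differences and not the spread behind them, which limma does.

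The within-group spread of Cdkn1a was far from typical. Its SD, pooled over both groups, was 0.85, against a median of 0.17 over all probe sets, and 43 of 22206 probe sets (0.194%) spread more widely. Of those 43, 13 belonged to the acinar list that was high in array 51. Acinar RNA did not follow Cdkn1a in array 50, where Cdkn1a was high and the acinar sum was 8.29. The part of acinar RNA in the Cdkn1a level of array 51 was not tested. None of the other p53 targets shared this spread. Eda2r came next with an SD of 0.31, which 8.13% of probe sets exceeded, and Trp53inp1 was the tightest with 0.10, which 82.0% exceeded.

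**Figure D2:**
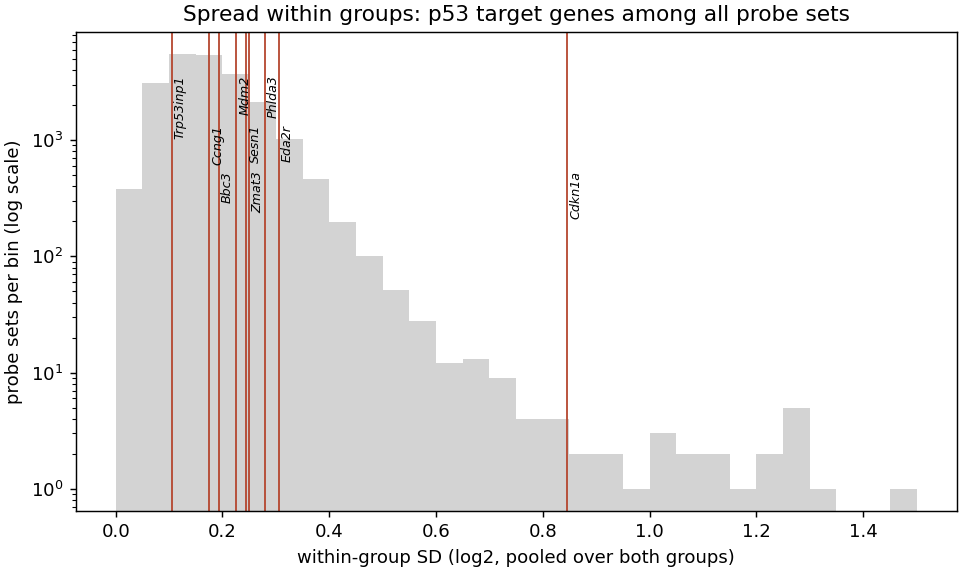
Histogram of the within-group SD (log2, pooled over AAV-PIK3CD and AAV-control) of all probe sets, with a log-scaled count axis, and red lines at the 9 p53 target genes. Cdkn1a lies at 0.85 in the sparse right tail, and the other 8 genes lie between 0.10 and 0.31 with the bulk of probe sets; 21 probe sets with an SD of 1.5 or more fall beyond the axis.

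Mdm2, the ligase that p53 induces and that degrades p53 in return, read 8.55, 8.24 and 8.37 in AAV-PIK3CD and 8.15, 8.04 and 8.57 in AAV-control. The high arrays were again 51 and 50, each within its own group, although on a smaller scale. The difference was 0.13 (SE 0.16), with a 95% interval from -0.22 to 0.48. It was 0.03 without array 49, 0.05 without array 51 and 0.29 without array 50. Ccng1 encodes cyclin G1, which brings a phosphatase to MDM2 and so takes part in the same feedback. It read 9.27, 9.0 and 9.13 in AAV-PIK3CD and 9.15, 8.99 and 9.40 in AAV-control. Array 50 was highest and array 51 second, and the group means differed by -0.05 (SE 0.14; interval -0.36 to 0.27). The sign of this small difference changed with the scaling: it was 0.02 after quantile normalisation and 0.02 after cyclic loess.

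Cdkn1a, Mdm2 and Ccng1 thus had the same pair of highest arrays, 50 and 51, from different groups, a pattern noticed after the values were seen. Among all probe sets this pair was the highest in 8.25% of cases, and the 15 possible pairs ranged from 4.8% to 9.03%. The 3 genes are 3 of 9 measured members and were not tested for this pattern. Conversely, arrays 50 and 51 were the lowest pair for Bbc3, Phlda3 and Zmat3, and for 7.3% of all probe sets. For Bbc3, array 48 was nearly as low, at 5.74 against 5.73 in array 51. The targets did not move as a block across the arrays. Per array, the number of the 9 genes at their maximum was 2, 0 and 3 in arrays 51, 52 and 53 and 0, 1 and 3 in arrays 48, 49 and 50.

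**Figure D3:**
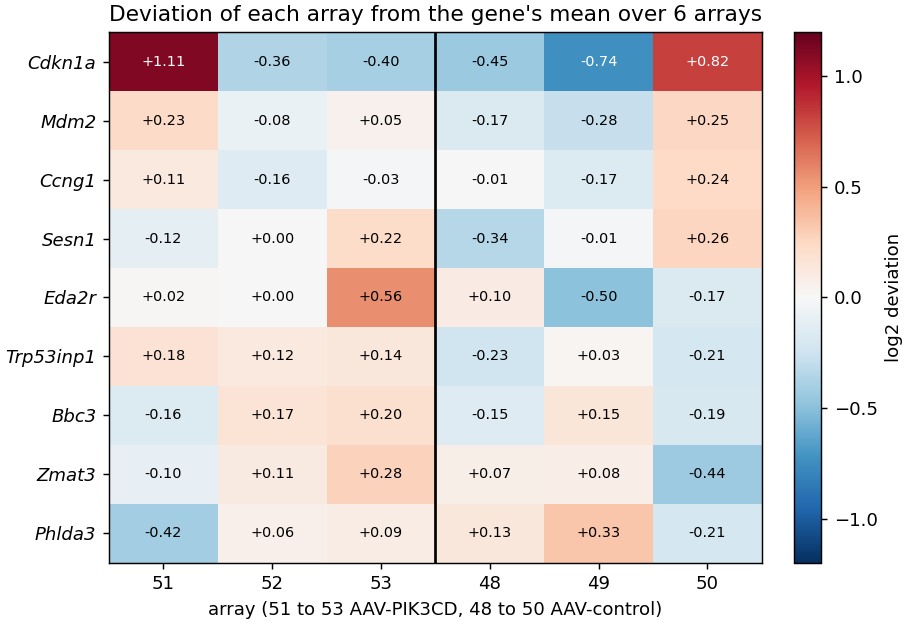
Deviation of each array (columns; 51 to 53 AAV-PIK3CD, 48 to 50 AAV-control) from the mean over 6 arrays of each p53 target gene (rows), in log2 units, red above and blue below the mean. Arrays 51 and 50 are the 2 highest for Cdkn1a, Mdm2 and Ccng1 and the 2 lowest for Bbc3, Zmat3 and Phlda3. For Bbc3, array 48 is nearly as low as array 51.

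Because these 3 genes shared their high arrays, a promoter window of each is shown. It runs from 250 bases before to 50 bases after an annotated transcription start (RefSeq, GRCm38.p6, read in the direction of transcription). Capitals mark exact matches to the 10-base p53 consensus decamer, which reads the same on both strands. The Cdkn1a window lies at chr17:29090729-29091028 on the plus strand, Mdm2 at chr10:117710709-117711008 on the minus strand and Ccng1 at chr11:40755237-40755536 on the minus strand.
Cdkn1a: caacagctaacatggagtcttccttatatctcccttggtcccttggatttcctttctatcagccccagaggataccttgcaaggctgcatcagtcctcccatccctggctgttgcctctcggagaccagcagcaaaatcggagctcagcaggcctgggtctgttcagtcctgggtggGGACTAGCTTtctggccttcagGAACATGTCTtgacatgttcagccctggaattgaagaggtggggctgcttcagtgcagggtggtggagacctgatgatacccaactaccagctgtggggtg
Mdm2: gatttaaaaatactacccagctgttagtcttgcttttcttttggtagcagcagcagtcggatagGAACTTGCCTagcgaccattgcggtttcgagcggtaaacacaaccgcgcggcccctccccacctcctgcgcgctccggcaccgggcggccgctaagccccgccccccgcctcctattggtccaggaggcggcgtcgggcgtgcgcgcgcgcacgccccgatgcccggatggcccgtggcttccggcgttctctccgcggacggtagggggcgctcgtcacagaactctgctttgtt
Ccng1: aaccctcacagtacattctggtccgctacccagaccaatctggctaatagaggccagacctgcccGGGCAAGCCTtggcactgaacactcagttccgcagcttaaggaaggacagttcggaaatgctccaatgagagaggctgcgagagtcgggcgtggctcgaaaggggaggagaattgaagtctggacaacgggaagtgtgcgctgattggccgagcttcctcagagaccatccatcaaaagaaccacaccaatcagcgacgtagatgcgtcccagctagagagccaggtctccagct

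The 3 windows shown were picked from those of these genes because they held the decamer, so its presence there is no result. Over all 32851 windows of this length, 8.36% held it. Cdkn1a held 2 copies, starting 73 and 51 bases before the start and separated by 12 bases. Such pairs of exact copies, with at most 13 bases between the copies, occurred in 24 windows in all (0.0731%). The window at the other annotated start of Cdkn1a held no exact copy. Near matches were neither marked nor counted. The bases directly after the second Cdkn1a copy, tgacatgttc, miss the decamer only in their first base. In Mdm2 the copy began 186 bases before the start and in Ccng1 185 bases. Over the members, windows were listed for 8 genes, and 5 of these genes had a decamer in at least 1 window, Bax and Sesn1 being the other 2. Counted by window, as the 8.36% is, 5 of 12 held it (41.7%). Bbc3, Phlda3 and Eda2r had none, which says only that these letters are not in those windows. Among the other p53 targets listed below, 9 of 28 genes with a window held the decamer, or 10 of 37 windows (27.0%). A match describes the sequence and does not show binding in these livers.

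Of the BCL-2 family members Bax and Bbc3, only Bbc3 was measured. It encodes PUMA, a BH3-only protein that frees BAX and BAK to permeabilise mitochondria. Bbc3 read 5.73, 6.06 and 6.09 in AAV-PIK3CD and 5.74, 6.04 and 5.70 in AAV-control. Low values (5.73 in AAV-PIK3CD, 5.70 and 5.74 in AAV-control) and high ones occurred in both groups, and the difference was 0.13 (SE 0.15; interval -0.19 to 0.46) and ran from 0.07 without array 53 to 0.25 without array 51. Eda2r, a receptor of the tumour necrosis factor family for ectodysplasin A2, had the largest difference of the 9 genes. It read 3.39, 3.38 and 3.93 in AAV-PIK3CD and 3.47, 2.88 and 3.20 in AAV-control. Array 53 was the highest and array 49 the lowest, the groups overlapped, and the difference was 0.38 (SE 0.19; interval -0.04 to 0.80). Without array 53 the difference was 0.20, and without array 49 it was 0.23. Rank products gave Eda2r an unadjusted p of 0.0121 (adjusted p = 0.708) and limma 0.0687 (adjusted p = 0.932). All 6 values lay below the array median.

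Phlda3 and Sesn1 act on the growth-signalling side. Phlda3 is a small pleckstrin-homology protein that competes with AKT for the membrane lipids made by PI3K. It read 3.14, 3.62 and 3.65 in AAV-PIK3CD and 3.69, 3.89 and 3.35 in AAV-control, again below the array median throughout. Array 51 was the lowest and the groups overlapped. The difference was -0.17 (SE 0.18; interval -0.57 to 0.22), and -0.01 without that array. Sesn1 encodes a sestrin, which restrains the growth kinase complex mTORC1. Its values were 6.69, 6.81 and 7.03 in AAV-PIK3CD and 6.47, 6.80 and 7.07 in AAV-control. The groups covered nearly the same range, with a difference of 0.06 (SE 0.17; interval -0.30 to 0.43) that turned to -0.09 without array 48 and to -0.03 without array 53.

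Trp53inp1 encodes a stress-induced nuclear partner of p53 that also takes part in autophagy. It read 7.48, 7.42 and 7.44 in AAV-PIK3CD and 7.07, 7.33 and 7.09 in AAV-control. All AAV-PIK3CD arrays lay above all AAV-control arrays, and the AAV-PIK3CD values were closer together than those of AAV-control (SD 0.03 against 0.14). The means differed by 0.28 (SE 0.12; interval 0.01 to 0.55), or 1.22-fold. Its exact permutation p was 0.1, the lowest that 3 arrays against 3 can reach. Among all probe sets the gene did not pass, with adjusted p-values of 0.943 by rank products and 0.932 by limma (0.119 and 0.0417 before adjustment). The difference stayed between 0.24 and 0.37 with each array left out. Zmat3, a zinc-finger protein that binds RNA and controls splicing and stability of transcripts, read 4.51, 4.72 and 4.89 in AAV-PIK3CD and 4.68, 4.69 and 4.17 in AAV-control. Array 50 was the lowest, and the groups overlapped. The difference of 0.19 (SE 0.17; interval -0.18 to 0.56) was 0.02 without it.

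**Figure D4:**
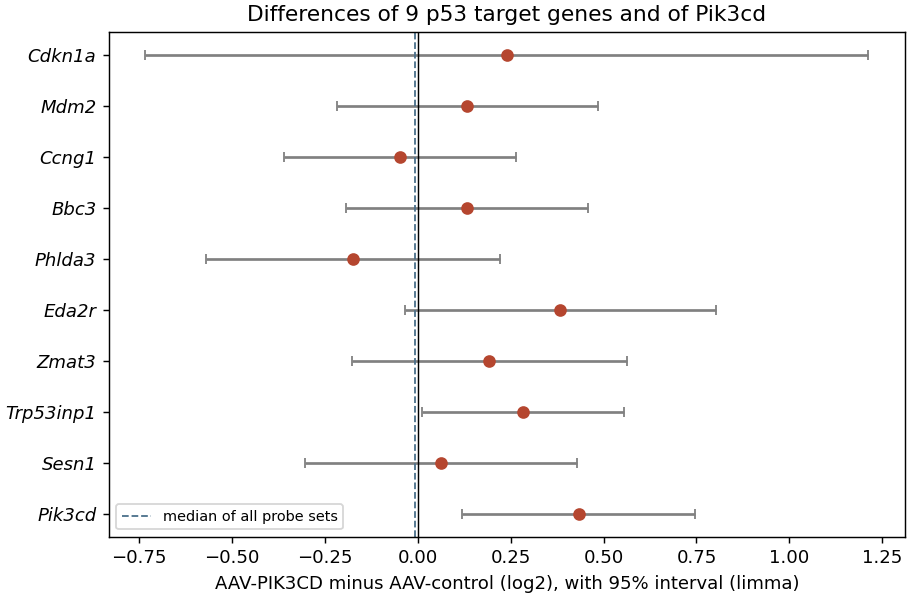
Differences of mean log2 values, AAV-PIK3CD minus AAV-control, of the 9 measured p53 target genes and of Pik3cd (points), with 95% intervals from limma (bars); the dashed line is the median of all probe sets, -0.01. The interval of Cdkn1a is the widest, from -0.73 to 1.21, and those of Trp53inp1 and Pik3cd lie above 0, although neither gene passed the adjusted threshold.

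The intervals show the precision of these differences. Outside Cdkn1a, the upper ends ran from 0.22 to 0.80 and the lower ends from -0.57 to 0.01 for the other 8 genes. In linear terms the widest of these, Eda2r, ended at 1.74-fold.

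Further p53 targets, not among the 10, gave the same count. Of 32 measured of 36 listed, 0 passed rank products or limma in either direction. Before adjustment 2 were below 0.05 by rank products, both lower, and 1 by limma, beside 5.7% and 5.08% of all probe sets. The median difference was 0.00, and 15 genes were higher and 15 lower. The lowest p-values belonged to Gadd45a, a growth-arrest and DNA-damage protein, which differed by -0.36 (rank products permutation p = 0.0186, adjusted p = 0.762), and to Sfn, the checkpoint protein 14-3-3 sigma, at -0.35 (rank products permutation p = 0.0305, adjusted p = 0.836). Sfn read 3.95, 3.80 and 3.86 in AAV-PIK3CD and 4.12, 4.50 and 4.05 in AAV-control, so its groups were separated but below the array median. It was the only separated gene of the 32, beside 9.44% of all probe sets in either direction. Perp, a desmosomal apoptosis effector, differed by -0.14. On the higher side, the nuclease Aen differed by 0.18, Cyfip2 by 0.16 and the kinase Plk3 by 0.12, all with overlapping groups. Aen was 0.03 and Perp -0.045 without array 51, Gadd45a was -0.21 without array 48 and Sfn -0.215 without array 49. Arrays 50 and 51 were the highest pair for 5 of the 32 (Ak1, Ddit4l, Polk, Rrm2b and Sesn2, named after their values were seen), beside the 8.25% of all probe sets given above. Ddit4l and Sesn2 lay below the array median in all arrays, and Ak1 and Rrm2b in some.

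Upstream of the targets, Trp53 itself was not analysed, since no probe set carried its symbol in the annotation used here. Of 19 measured regulators, 0 passed rank products or limma, and 13 were lower in AAV-PIK3CD with a median difference of -0.07. Before adjustment 1 was below 0.05 by each test, beside 5.7% of all probe sets by rank products and 5.08% by limma. The kinase Atm, which activates p53 after double-strand breaks, had the lowest p. It read 4.44, 4.76 and 4.53 in AAV-PIK3CD and 4.79, 4.86 and 5.17 in AAV-control, with every AAV-PIK3CD array below every AAV-control array. Its difference was -0.36 (SE 0.14; rank products permutation p = 0.0481, adjusted p = 0.875; limma p = 0.0293, adjusted p = 0.932). Hipk2, a kinase that phosphorylates p53 in the apoptotic response, was also separated, at -0.19, and such separation downwards occurred in 4.97% of probe sets. Trp63, a p53 relative, differed by -0.10. Chek1 and Atr, kinases of the replication checkpoint, differed by 0.10 and 0.08 and Trp53bp1, which binds broken DNA, by 0.06.

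Downstream of p21, cell cycle genes that are repressed when p21 acts were read as well. Of 22 measured, 0 passed rank products or limma, 0 had an unadjusted p under 0.05 by rank products or by limma, and the median difference was 0.05. Mcm5 of the replicative helicase, the kinetochore protein Cenpf and the transcription factor Mybl2 differed by 0.20 each, whereas E2f1 differed by -0.29, Cdk1 by -0.14 and Aurkb by -0.10. Cdk1 lay between 2.74 and 3.11 in AAV-PIK3CD and between 2.71 and 3.33 in AAV-control. All its values were below the array median, as were those of Mcm5, Mybl2, E2f1 and Aurkb. Cenpf lay above it in some arrays only. The arrays high in Cdkn1a, 50 and 51, were the highest pair for 4 of the 22 genes (Cdc25c, Mcm2, Mcm3 and Mcm5, named after their values were seen), beside 8.25% of all probe sets. Cdc25c, like Mcm5, lay below the array median in all arrays, and Mcm2 in some. With single arrays left out, Mcm5 was 0.055 without array 49, Mybl2 0.115 without array 49 or 51 and E2f1 -0.12 without array 50, and Cdk1 was -0.01 without array 49.

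Around Bbc3, 17 genes of the BCL-2 family and the caspase cascade were measured, and 0 passed rank products or limma (0 at an unadjusted p under 0.05 by either). Bid, a BH3-only protein, differed by -0.26, Diablo, which relieves caspases of their inhibitors, by -0.27 and Hrk by -0.21. Without array 51 Diablo was -0.17 and Hrk -0.02, and without array 49 Bid was -0.12. The survival gene Bcl2a1a differed by 0.24, Bmf by 0.17 and the caspase inhibitor Xiap by 0.13. Without array 51, the array high in acinar and muscle transcripts, Bcl2a1a was 0.13 and Bmf 0.02. Relatives of the targets, of which Sesn2 and Mdm4 also stood in other lists, were read for comparison, and 0 of 15 passed rank products or limma. Before adjustment 2 had a p under 0.05 by rank products and 2 by limma, beside 5.7% and 5.08% of all probe sets. Cdkn1c, which encodes p57, the imprinted relative of p21, read 6.46, 5.99 and 5.88 in AAV-PIK3CD and 5.64, 5.67 and 5.47 in AAV-control. All AAV-PIK3CD arrays were higher, and the difference of 0.52 (SE 0.16; rank products permutation p = 0.00504, adjusted p = 0.611; limma p = 0.00852, adjusted p = 0.932) was above the 0.38 of Eda2r over all arrays. Without array 51 Cdkn1c differed by 0.34 and Eda2r by 0.47, so this order did not hold. Phlda1, a relative of Phlda3, read 6.36, 6.29 and 6.21 in AAV-PIK3CD and 6.81, 6.37 and 6.95 in AAV-control, with every AAV-PIK3CD array just below the lowest AAV-control array or further down, and a difference of -0.42 (SE 0.16; rank products permutation p = 0.0169, adjusted p = 0.752). Cdkn1c and Phlda1 were the only genes of the 15 with separated groups. Over all probe sets, 4.47% were separated upwards and 4.97% downwards. Ccng2, the relative of Ccng1 that FoxO factors induce, differed by 0.26 and Sesn2 by 0.14, while Phlda2 differed by -0.26 and Zmat1 by -0.18.

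**Figure D5:**
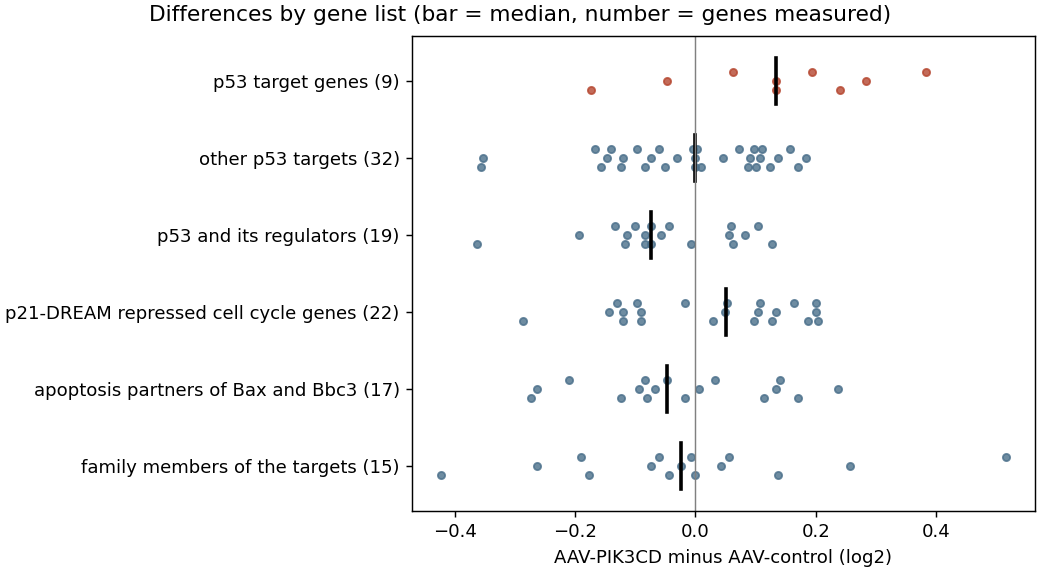
Difference of mean log2 values, AAV-PIK3CD minus AAV-control, of every measured gene (points) in the p53 target list and in 5 further lists, with the median of each list as a black bar. The medians run from -0.07 for p53 and its regulators to 0.13 for the p53 targets, and the widest differences are those of Cdkn1c (0.52) and Phlda1 (-0.42).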

How the data were processed

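Labelled total liver RNA was read on Clariom S arrays. RMA was run by the authors, and the deposited values are log2 intensities with 2 decimals; the RMA software version is not given in the sources used here. No filter was applied to the 22206 probe sets, of which 19572 carried 1 symbol and 2634 none in the platform annotation. Where several shared a symbol, the set with the highest mean stood for the gene.

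The groups came from the sample titles. AAV-PIK3CD and AAV-control were compared by rank products over the 9 pairs of arrays (1000 seeded shuffles of the gene order, 2-sided, Benjamini-Hochberg over all probe sets) and by limma 3.58.1 in R 4.3.3, which gave standard errors and 95% intervals. Both were tested on simulated data; with unequal spreads rank products also called unchanged probe sets of large spread. Single values were tested by a 2-sided exact permutation test. Promoter windows came from RefSeq. Python 3.11.15, numpy 2.4.6, scipy 1.17.1 and pandas 2.3.3 were used.

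The 10 genes and the 5 further lists were chosen with earlier results of these data known. Named genes were the 10, Pik3cd, Trp53 and up to 3 genes per direction of each further list with the smallest rank products p; Cdkn1a's high arrays were noticed later. Alternatives were limma, an unpaired t-test and quantile, median and loess scaling. Others were 2 filters on dim probe sets, a single probe set for each symbol and leaving out every array in turn. The study names that t-test for comparisons of means in general, and rank products for these arrays.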

Additional observations from a re-analysis of the deposited data

How the results depend on the processing

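The measured p53 targets gave 0 calls in the 122 tests of single genes run under the 14 alternatives (smallest adjusted p 0.633), and the 5 further lists gave 0. Eda2r was removed by both filters on dim probe sets, and Phlda3 and Zmat3 by the filter at 50%, so they have no value there. The precision is limited by 3 arrays per group. Phlda3 and Eda2r also had signal below the array median, and its part in their precision was not tested. The median difference of the p53 targets was 0.10 to 0.16 under the alternatives of scaling and 0.07 to 0.21 with single arrays left out. The count of these genes with separated groups, 1 over all arrays, ranged from 1 to 4 with single arrays left out, as fewer arrays are separated more easily (17.6% to 21.6% of all probe sets). Over all probe sets, 9 were called by rank products, 0 by limma and 0 by the unpaired t-test. Rank products called 5 without the dimmest 25% of probe sets, 2 without the dimmest 50%, and 1 to 10 with single arrays left out.

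The sign of Ccng1 turned to 0.0194 under quantile normalisation and 0.0152 under cyclic loess. With single arrays left out, differences that changed sign ranged from -0.14 to 0.0633 for Ccng1, -0.26 to 0.71 for Cdkn1a, -0.0917 to 0.21 for Sesn1, -0.045 to 0.27 for Atr, -0.25 to 0.0917 for Aurkb, -0.025 to 0.35 for Cenpf, -0.0567 to 0.23 for Chek1, -0.035 to 0.33 for Cyfip2, -0.45 to 0.0267 for Phlda2, -0.0633 to 0.37 for Plk3, -0.0133 to 0.29 for Sesn2, -0.0817 to 0.32 for Trp53bp1, -0.24 to 0.0183 for Trp63, -0.005 to 0.25 for Xiap and -0.41 to 0.0283 for Zmat1. Differences that kept their sign but moved ranged from 0.03 to 0.29 for Mdm2, 0.07 to 0.25 for Bbc3, -0.32 to -0.01 for Phlda3, 0.20 to 0.53 for Eda2r, 0.02 to 0.29 for Zmat3 and 0.34 to 0.63 for Cdkn1c. Causes were not tested. No paired analysis was possible because the labels give the groups no shared replicate numbers.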
